A study of Homo sapiens with 4 samples.

Results

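The secreted Wnt antagonists were described here as 10 genes out of 18640 measured in human embryoid bodies. They were 5 genes of the secreted Frizzled-related family (SFRP1, SFRP2, FRZB, SFRP4 and SFRP5), 4 of the Dickkopf family (DKK1, DKK2, DKK3 and DKK4) and WIF1. Their values came from every probeset whose only gene symbol in the platform annotation was 1 of these names, which gave 83 of 247312 probesets, all of them usable. Each probeset reads a short stretch of a gene's exons, and a gene's level is the mean log2 signal over its probesets. No probeset carried an older alias of a member. Embryoid bodies are aggregates in which embryonic stem cells start to differentiate, so each array holds the RNA of a mixture of cell types. The starting line was BG01V, a human embryonic stem cell variant known for an abnormal karyotype, and the bodies were grown first in suspension and then on gelatin in medium with serum. Those of the TBBD group received 10 µM TBBD for 48 h, generally between day 2 and day 4, and those of the DMSO group received DMSO as the control. The series title describes TBBD as an inhibitor of a histone H3 arginine methylation mark. Each group held 2 arrays, numbered 2 and 1 in the titles, from this 1 line and with no genetic change named in the labels. What separates the numbers is not said in the labels, nor whether they were separate cultures, so each p-value here measures no more than the spread between these arrays, which may be technical.

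Wnt proteins are secreted lipid-bearing signals that bind Frizzled receptors together with the coreceptors LRP5 and LRP6, which stabilises beta-catenin and turns on TCF/LEF target genes. The antagonists act outside the cell at different steps. SFRP proteins and WIF1 bind Wnt proteins themselves, SFRP proteins through a domain like that of Frizzled, whereas DKK1 and DKK4 bind LRP5 and LRP6 and keep Wnt from using them. In early embryos Wnt activity drives formation of the primitive streak, and antagonists such as DKK1 limit it on the anterior side.

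The genes fell into 3 patterns over the 4 arrays. FRZB was far higher on both replicate 2 arrays than on both replicate 1 arrays, with TBBD and with DMSO alike. DKK1, SFRP2 and DKK4 were highest on the array of DMSO replicate 1 and differed less among the other 3. That array was the highest for 3 of the 10 genes and for 29.2% of all genes, so the count is near the share for all genes. The remaining 6 genes ranged over the arrays by 0.21 (DKK3) to 0.87 (SFRP1) on the log2 scale. TBBD and DMSO could not be told apart by the test for any of the 10 genes: limma called 0 of them, against 0.0% of all genes at an adjusted p under 0.05, and 0 had an unadjusted p under 0.05, against 0.746% of all genes. Between replicate numbers limma called 1 of the 10, against 3.5% of all genes, and 4 had an unadjusted p under 0.05, against 18.2% of all genes.

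**Figure D1:**
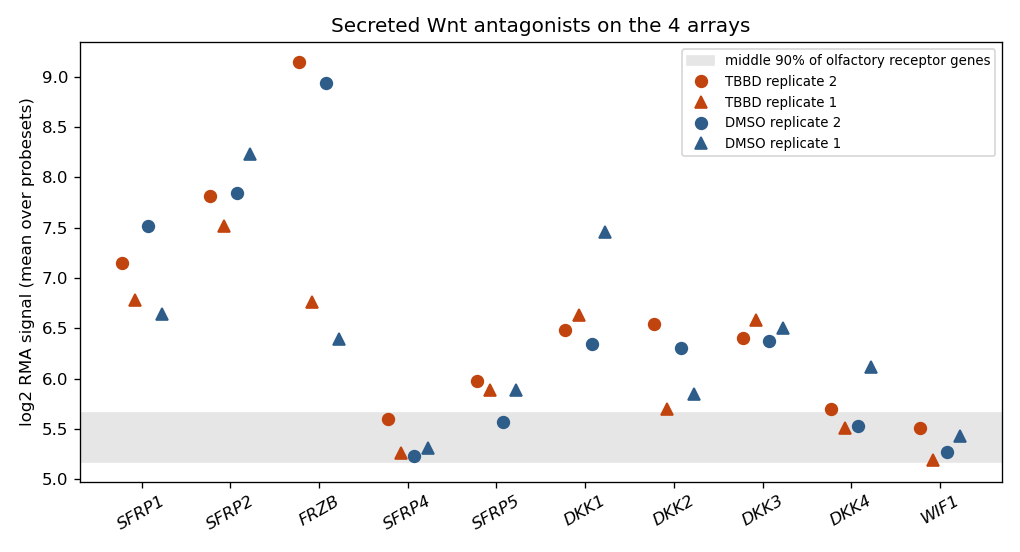
Log2 RMA signal (mean over probesets) of the 10 genes on each array, with TBBD in red, DMSO in blue, replicate 2 as circles and replicate 1 as triangles. The grey band is the middle 90% of olfactory receptor genes. FRZB separates by replicate number, and DKK1 reads 7.46 on DMSO replicate 1, above its other 3 arrays. Signals of different genes come from different probes and are not to be ranked.

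The 348 olfactory receptor genes, which embryoid bodies are not expected to express, gave a guide to low signal. Their levels had a median of 5.40 and a middle 90% between 5.18 and 5.66 on the log2 scale. Over the 4 arrays SFRP4 averaged 5.35 and WIF1 averaged 5.35, inside that band, so it is unknown whether these 2 genes were expressed. DKK4 averaged 5.71, with 2.59% of the olfactory receptor genes at or above it, and SFRP5 averaged 5.83, with 1.15% at or above it. As averages both lay just over the band. DKK4 was inside it on TBBD replicate 1 (5.51) and DMSO replicate 2 (5.53), and SFRP5 on DMSO replicate 2 (5.57). The other arrays of both genes lay above it. This is no detection call, because probes differ in how strongly they bind.

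FRZB, the founding Wnt-binding member of the SFRP family and a product of cartilage and mesenchyme, had the largest difference of the 10 genes between the replicate numbers. It read 9.14 with TBBD and 8.94 with DMSO on the replicate 2 arrays, and 6.76 with TBBD and 6.40 with DMSO on the replicate 1 arrays. The 2 numbers did not overlap, and within each number the TBBD array was the higher. FRZB was higher in replicate 2 by 2.46 ± 0.12 on the log2 scale (SE), a fold of 5.51, and passed the test (limma adjusted p = 0.000893). By size of this difference it stood at rank 6 of all 18640 genes. All 10 FRZB probesets had both replicate 2 arrays above both replicate 1 arrays, which held for 21.1% of all probesets. Their differences ran from 1.48 to 3.51, and the 95% confidence interval of the gene's difference ran from 2.18 to 2.74.

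With TBBD, FRZB lay above DMSO by 0.21 in replicate 2 and 0.36 in replicate 1. All 10 probesets were higher with TBBD in the mean of both numbers, by 0.10 to 0.55. The gene's difference was 0.29 ± 1.11 on the log2 scale (SE) and did not pass (limma adjusted p = 1). Without TBBD replicate 2 it stood at -0.91 and without DMSO replicate 1 at -0.98, against 1.56 without DMSO replicate 2. Those fits leave the 2 numbers unequal.

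Promoter sequences are shown for the gene that differed most between the numbers and for a pair that were both highest on DMSO replicate 1. They come from the RefSeq table of build GRCh38.p14 and run 250 bases before to 50 after the gene's start. Windows were read for 6 of the 10 genes. Those of SFRP1, DKK2, DKK3 and DKK4 were not read, which does not show that these genes lack an entry. Capitals mark CTTTGA, a form of the core letters that TCF/LEF factors recognise, and the core promoter motif TATAAA. Other forms of the TCF/LEF letters were not searched. Each was searched on both strands, and no matches overlapped. FRZB is at chr2:182866588-182866887 (minus strand), SFRP2 at chr4:153789034-153789333 (minus strand) and DKK1 at chr10:52314031-52314330 (plus strand).
FRZB: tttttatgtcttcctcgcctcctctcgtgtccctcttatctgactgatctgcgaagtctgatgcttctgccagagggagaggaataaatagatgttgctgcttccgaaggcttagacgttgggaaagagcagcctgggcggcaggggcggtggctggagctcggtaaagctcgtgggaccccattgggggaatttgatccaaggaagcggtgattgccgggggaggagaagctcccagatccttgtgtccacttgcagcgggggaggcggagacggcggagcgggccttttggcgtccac
SFRP2: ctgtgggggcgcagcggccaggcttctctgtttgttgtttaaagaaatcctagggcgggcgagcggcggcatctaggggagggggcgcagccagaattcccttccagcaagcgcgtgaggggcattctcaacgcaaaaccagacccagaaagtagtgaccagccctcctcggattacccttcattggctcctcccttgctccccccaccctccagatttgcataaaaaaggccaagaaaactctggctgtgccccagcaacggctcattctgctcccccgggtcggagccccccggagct
DKK1: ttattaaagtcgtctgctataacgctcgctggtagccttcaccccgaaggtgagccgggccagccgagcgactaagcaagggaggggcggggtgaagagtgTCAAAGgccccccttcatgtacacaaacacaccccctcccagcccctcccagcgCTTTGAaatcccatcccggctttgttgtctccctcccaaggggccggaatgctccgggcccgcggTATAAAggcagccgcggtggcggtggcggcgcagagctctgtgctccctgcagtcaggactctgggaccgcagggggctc
The DKK1 window held CTTTGA at 2 places, 149 bases before the start (as TCAAAG, on the other strand) and 95 bases before it, and TATAAA 30 bases before it. CTTTGA was found in 12.9% of the 35116 windows of the table, at 2 or more places in 1.29%, and TATAAA in 11.5%. Neither set of letters was in the windows of FRZB, SFRP2, SFRP4, SFRP5 or WIF1, which says only that these letters are not there.

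SFRP1, the Wnt-binding protein expressed widely in embryonic tissue, followed the replicate numbers too, by less. It read 7.15 and 6.79 with TBBD (replicates 2 and 1), against 7.51 and 6.64 with DMSO. Both replicate 2 arrays lay above both replicate 1 arrays, which 25.1% of all genes did. The difference between numbers was 0.62 ± 0.15 on the log2 scale (SE) and missed the threshold (limma adjusted p = 0.0826), though it passed when only genes with at least 3 probesets were tested (limma adjusted p = 0.0485). All 4 probesets pointed the same way, from 0.55 to 0.76. TBBD minus DMSO was -0.37 in replicate 2 and 0.15 in replicate 1, opposite in sign. In replicate 2 most of it came from 1 probeset at -1.14, while the others ran from -0.33 to 0.15.

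SFRP2, which undifferentiated stem cells make and which has been described both as a Wnt antagonist and as an enhancer, was the only one of the 10 genes whose TBBD and DMSO arrays did not overlap, where 20.9% of all genes did not. It read 7.81 and 7.52 with TBBD (replicates 2 and 1), against 7.85 and 8.24 with DMSO. Both TBBD arrays lay below both DMSO arrays, as in 10.4% of all genes, but in replicate 2 the gap was only -0.03. In replicate 1 it was -0.72, rank 65 from the lowest of all genes, and all 5 probesets were lower, from -1.01 to -0.44. The fit gave -0.38 ± 0.19 (SE), and its 95% confidence interval ran from -0.86 to 0.11 (limma adjusted p = 1). Leaving out 1 array moved it between -0.57 (without DMSO replicate 2) and -0.18 (without DMSO replicate 1). Taken as the median of its probesets it was -0.57.

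Between the numbers SFRP2 did not differ beyond its error, at -0.05 ± 0.17 on the log2 scale (SE; limma adjusted p = 0.935), while the median of its probesets gave 0.32. It was higher in replicate 2 by 0.30 with TBBD and lower by 0.39 with DMSO. The DMSO arrays therefore ran against the TBBD arrays here, and the array of DMSO replicate 1 was the highest in 4 of 5 probesets. DMSO replicate 1 was the highest array in 25.5% of all probesets.

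SFRP4, an SFRP family member found mainly in connective tissue and bone, read 5.60 and 5.26 with TBBD (replicates 2 and 1), against 5.23 and 5.31 with DMSO. SFRP5, known from gut endoderm and fat tissue, read 5.98 and 5.89 with TBBD, against 5.57 and 5.89 with DMSO. In both genes the 2 groups overlapped, and TBBD replicate 2 was the highest array. TBBD minus DMSO was 0.37 for SFRP4 and 0.40 for SFRP5 in replicate 2, and -0.05 and -0.0024 in replicate 1. In replicate 2, 10 of 12 SFRP4 probesets and 4 of 4 SFRP5 probesets were higher with TBBD. The fitted differences were 0.16 ± 0.16 for SFRP4 and 0.20 ± 0.15 for SFRP5 (SE) and did not pass (limma adjusted p = 1 for each). Between numbers they differed by 0.13 ± 0.14 and -0.11 ± 0.14, which did not pass either (limma adjusted p = 0.719 and 0.754). Both signs turned between the TBBD arrays, at 0.34 and 0.09, and the DMSO arrays, at -0.08 and -0.32.

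WIF1, Wnt inhibitory factor, is unrelated to the SFRP family in structure and binds Wnt through a domain of its own. It read 5.51 and 5.19 with TBBD (replicates 2 and 1), against 5.27 and 5.43 with DMSO. The groups overlapped, and the same-number differences were near mirror images, 0.24 in replicate 2 and -0.24 in replicate 1. The fitted difference was -0.00063 ± 0.16 (SE; limma adjusted p = 1). Its 10 probesets spread from 4.82 to 6.12 in level, and 1 of them had the largest difference between numbers, 1.06. Between the numbers the WIF1 difference was 0.08 ± 0.15 (SE; limma adjusted p = 0.856), at 0.32 between the TBBD arrays and -0.17 between the DMSO arrays.

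DKK1, the LRP5 and LRP6 blocker that acts in head formation and is itself a Wnt target, read 6.48 and 6.63 with TBBD (replicates 2 and 1), against 6.35 and 7.46 with DMSO. DMSO replicate 1 stood above the other 3 arrays, which lay close together. In replicate 1 TBBD minus DMSO was -0.82, a fold of 0.565, rank 33 from the lowest of all 18640 genes. All 7 probesets were lower there, from -1.41 to -0.34, and 4 of them passed a fold of 1.5. In replicate 2 the same difference was 0.13, with 5 of 7 probesets higher. All 7 probesets had their highest value on DMSO replicate 1.

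The fit of TBBD minus DMSO gave -0.35 ± 0.37 for DKK1 (SE), and its 95% confidence interval ran from -1.30 to 0.60 (limma adjusted p = 1). Without DMSO replicate 1 it stood at 0.21 and without DMSO replicate 2 at -0.90. Between the numbers DKK1 lay lower in replicate 2 by -0.63 ± 0.21 on the log2 scale (SE), which did not pass (limma adjusted p = 0.182). The median of its probesets gave -0.95 and did not pass either (limma adjusted p = 0.0674). Both replicate 2 arrays were below both replicate 1 arrays, as in 25.9% of all genes. That difference was -0.15 with TBBD and -1.11 with DMSO, so most of it came from the DMSO arrays. Leaving out either DMSO array gives -0.15, the TBBD difference, and so cannot single out 1 of them.

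DKK4, which blocks LRP5 and LRP6 as DKK1 does and is also a known Wnt target, had the same highest array as DKK1. It read 5.70 and 5.51 with TBBD (replicates 2 and 1), against 5.53 and 6.12 with DMSO. Again DMSO replicate 1 was the highest array, in 6 of 7 probesets. TBBD minus DMSO was -0.60 in replicate 1, rank 152 from the lowest of all genes, with 7 of 7 probesets lower, and 0.17 in replicate 2, with 6 of 7 higher. The fitted difference was -0.22 ± 0.22 (SE; limma adjusted p = 1), and 0.08 without DMSO replicate 1. Between the numbers it was -0.20 ± 0.19 (SE; limma adjusted p = 0.660), with TBBD at 0.19 and DMSO at -0.59.

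DKK2, a Dickkopf protein that can inhibit or weakly activate Wnt signalling depending on the partner Kremen, followed the replicate numbers. It read 6.55 and 5.70 with TBBD (replicates 2 and 1), against 6.31 and 5.85 with DMSO. Both replicate 2 arrays lay above both replicate 1 arrays. The difference was 0.65 ± 0.14 on the log2 scale (SE) and just missed the threshold (limma adjusted p = 0.0531). Taken as the median of its probesets it was 1.07 and passed (limma adjusted p = 0.0364). The probesets disagreed in size: 8 of 9 were higher in replicate 2, from 0.12 to 1.36, and 1 stood at -0.02. TBBD minus DMSO was 0.24 in replicate 2 and -0.15 in replicate 1, and the fit gave 0.05 ± 0.32 (SE; limma adjusted p = 1).

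DKK3, the most divergent Dickkopf and not a typical LRP blocker, varied little over the arrays as a mean over its probesets. It read 6.40 and 6.58 with TBBD (replicates 2 and 1), against 6.37 and 6.50 with DMSO, a range of 0.21 over the arrays. TBBD minus DMSO was 0.03 in replicate 2 and 0.08 in replicate 1. The fit gave 0.05 ± 0.13 (SE), and its 95% confidence interval ran from -0.28 to 0.38 (limma adjusted p = 1). Its 15 probesets were not steady: 6 were higher and 9 lower with TBBD, from -0.55 to 0.98, and 4 had both TBBD arrays above both DMSO arrays while 3 had them below. For all probesets these shares were 13.2% and 13.1%. As a median of its probesets DKK3 ranged over 0.43 on the log2 scale, more than WIF1 at 0.23, and TBBD minus DMSO in replicate 2 was 0.23. Both replicate 2 arrays were below both replicate 1 arrays, by -0.15 ± 0.11 (SE; limma adjusted p = 0.566), and the median of its probesets gave -0.29 (limma adjusted p = 0.405).

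**Figure D2:**
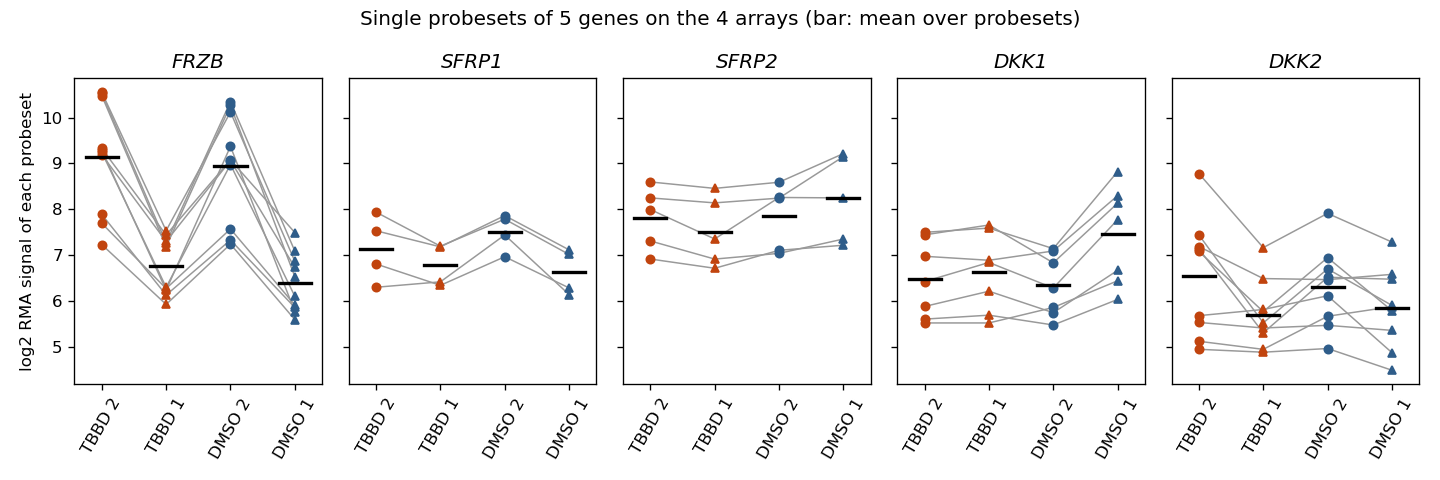
Log2 RMA signal of every probeset (points joined by grey lines) of FRZB, SFRP1, SFRP2, DKK1 and DKK2 on the 4 arrays, with the mean over probesets as a black bar. The FRZB probesets move together by replicate number, the DKK1 probesets are all highest on DMSO replicate 1, and the DKK2 probesets differ in size.

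Set beside each other within each replicate number, 3 of the 10 genes had a TBBD difference of the same sign in both (FRZB, SFRP2 and DKK3), where 44.5% of all genes did, so the count is near the share for all genes, and 6 were higher in replicate 2 but lower in replicate 1, where 31.7% of all genes were. The same-sign count was 4 with quantile normalization and with median centring, which put SFRP5 in replicate 1 at 0.016 and 0.012, and 4 with the median of probesets, which put SFRP4 there at 0.07. In replicate 2, 8 were higher and 2 lower with TBBD, with a median of 0.19, against 0.01 over all genes. In replicate 1, 3 were higher and 7 lower, with a median of -0.10, against -0.02 over all genes. Past a fold of 1.5 (0.58 on the log2 scale) there were 0 of 10 in replicate 2, where 0.891% of all genes passed (0.51% as higher and 0.381% as lower). In replicate 1, DKK1, SFRP2 and DKK4 were lower by that much, 3 of 10, where 0.912% of all genes were, and 0 were higher, where 0.633% of all genes were. As medians of their probesets DKK2 was higher by 0.61 in replicate 2, 1 of 10, where 1.38% of all genes passed, and DKK4 in replicate 1 stood at -0.41, which left 2 of 10, where 1.91% of all genes passed. These are single arrays against single arrays, with no test, and the difference between the numbers in their response was not tested because no degrees of freedom remain for it.

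**Figure D3:**
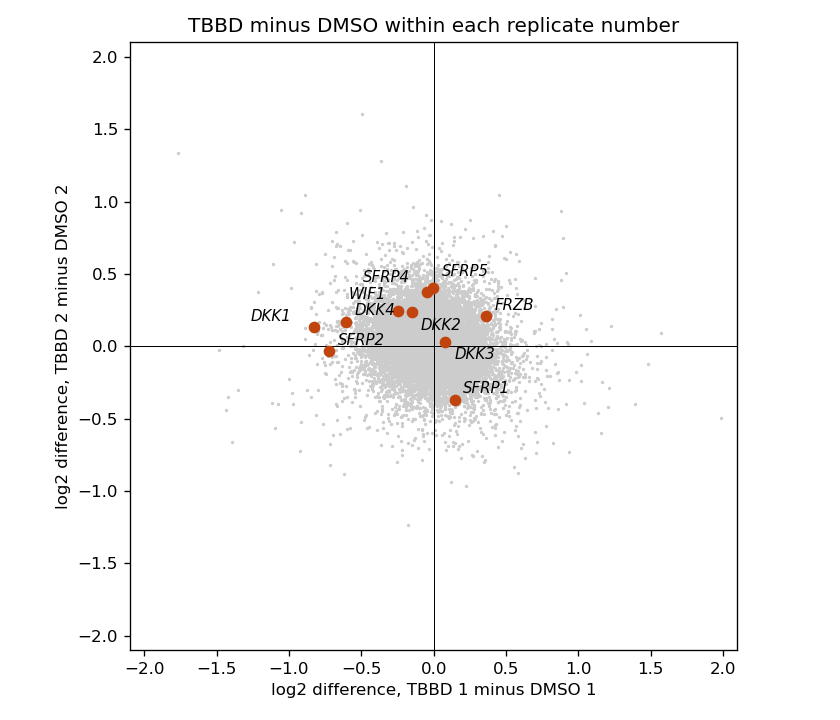
TBBD minus DMSO on the log2 scale in replicate 1 (horizontal) and replicate 2 (vertical), with the 10 genes in red and all 18640 genes in grey. DKK1, SFRP2 and DKK4 lie at -0.82, -0.72 and -0.60 in replicate 1, and at 0.13, -0.03 and 0.17 in replicate 2.

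Between the replicate numbers the 10 genes split evenly, 5 higher and 5 lower in replicate 2, with a median of 0.02, against -0.0024 over all genes. The arrays of the 2 numbers did not overlap for 5 of 10, where 51.0% of all genes did not, so the count is near the share for all genes. Higher without overlap were FRZB, DKK2 and SFRP1, and lower were DKK1 and DKK3. FRZB differed about as much with TBBD, at 2.38, as with DMSO, at 2.54. At least 1.5-fold differences between the DMSO arrays were found for FRZB, SFRP1, DKK1 and DKK4, 4 of 10, where 5.31% of all genes had one. The first 2 were higher in replicate 2, as 2.98% of all genes were, and the other 2 lower, as 2.33% were. Between the TBBD arrays they were found for FRZB and DKK2, 2 of 10 and both higher, where 3.98% of all genes were higher, 2.66% lower and 6.64% either.

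**Figure D4:**
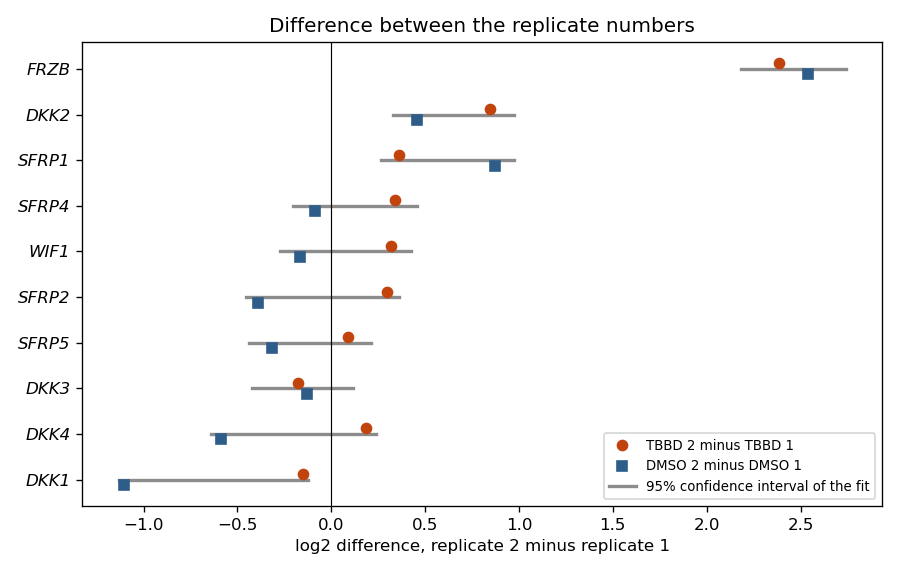
Log2 difference of replicate 2 minus replicate 1 for each gene, between the TBBD arrays (red circles) and between the DMSO arrays (blue squares), with the 95% confidence interval of the limma fit in grey. FRZB lies at 2.38 and 2.54, DKK2 and SFRP1 lie above 0 in both groups, and DKK1 reaches -1.11 in DMSO only.

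Other parts of the Wnt pathway were counted from lists that share no gene with the 10. Between TBBD and DMSO, limma called 0 genes in any of these lists. Between the replicate numbers, 2.3% of all genes were called higher and 1.21% lower in replicate 2. Of 19 Wnt ligand genes 15 lay lower in replicate 2, and 1 passed, WNT8A, a ligand of the primitive streak, at -1.20 ± 0.17 (SE; limma adjusted p = 0.0167). It read 6.64 and 7.49 with TBBD (replicates 2 and 1), against 7.03 and 8.57 with DMSO. WNT5A at -0.60 and WNT5B at -0.48 did not pass. Of 17 receptors and coreceptors 0 passed, with 6 higher and 11 lower. The smallest p-values among them belonged to ROR1, a Wnt receptor kinase, at -0.49, and to the Frizzled genes FZD2 at 0.47 and FZD6 at 0.40.

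Of the 9 genes of the R-spondins, which amplify Wnt signals, and of their receptors, 2 passed as higher and 2 as lower in replicate 2. RSPO1, an R-spondin ligand, was higher by 1.35 ± 0.12 (SE; limma adjusted p = 0.00303), and RSPO3, another R-spondin, by 1.26 (limma adjusted p = 0.0435). RSPO3 was named after its value was seen. LGR5, an R-spondin receptor and Wnt target, was lower by -1.28 ± 0.12 (SE; limma adjusted p = 0.00343), and RNF43, a ligase that removes Frizzled, by -0.95 ± 0.16 (SE; limma adjusted p = 0.0265). Of 8 measured extracellular inhibitors outside the 10, only APCDD1, a membrane-bound inhibitor, passed, higher by 1.10 ± 0.21 (SE; limma adjusted p = 0.0417). CER1, a secreted antagonist of Wnt, Nodal and BMP, stood at -1.07 ± 0.22 (SE; limma adjusted p = 0.0508). It read 6.28 and 6.85 with TBBD (replicates 2 and 1), against 6.71 and 8.29 with DMSO, so its highest array was DMSO replicate 1, as for DKK1. NOTUM, an enzyme that strips the lipid from Wnt, read 6.33 and 6.74 with TBBD, against 6.59 and 7.13 with DMSO.

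Of 11 genes of Wnt secretion and signal relay, WLS, the Wnt export carrier, passed, lower by -0.94 ± 0.12 (SE; limma adjusted p = 0.0124). Of 12 canonical feedback targets 9 lay lower in replicate 2 and 1 passed, CDX2, a caudal-type transcription factor, at -0.99 ± 0.17 (SE; limma adjusted p = 0.0289). In replicate 1, 10 of these 12 targets were lower with TBBD, with a median of -0.32, against -0.02 over all genes. In replicate 2, 5 were lower and 7 higher, with a median of 0.10, against 0.01 over all genes. DMSO replicate 1 was the highest array for 7 of the 12, where 29.2% of all genes had it highest. The replicate 1 difference uses that same array, so this count is no separate result. NKD1, a feedback inhibitor, read 7.13 and 7.29 with TBBD (replicates 2 and 1), against 7.53 and 8.26 with DMSO. Its TBBD and DMSO arrays did not overlap, where 20.9% of all genes did not, and limma did not call it between the groups. AXIN2, the standard feedback target, read 7.35 and 6.86 with TBBD, against 7.37 and 7.14 with DMSO, and was higher in replicate 2 by 0.36 ± 0.12 (SE; limma adjusted p = 0.191).

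Markers of cell types moved with both patterns. In bulk RNA, fewer cells of a type and less RNA per cell cannot be told apart. The lists were chosen with earlier results of these data known. Of all genes 2.3% were called higher in replicate 2 and 1.21% lower. All 12 mesenchyme markers lay higher in replicate 2, and 9 passed. The mean log2 signal of the list was 9.35 and 8.08 with TBBD (replicates 2 and 1), against 9.17 and 7.98 with DMSO. DCN, a matrix proteoglycan, was higher by 3.21, COL3A1 by 2.16 and COL1A1 by 1.66, the last 2 being fibrillar collagens, and each passed (limma adjusted p = 0.000987, 0.000944 and 0.00149 in that order). Of 9 measured visceral endoderm markers 8 lay higher and 5 passed, with list means of 7.03 and 5.73 with TBBD, against 6.81 and 5.59 with DMSO. All 6 endothelial markers passed as higher, with list means of 7.56 and 6.29 with TBBD, against 7.18 and 6.26 with DMSO. The FRZB difference went with these 3 lists, and their part in it was not tested.

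Primitive streak markers went with the DMSO replicate 1 pattern. Their mean log2 signal over 7 genes was 5.98 and 6.11 with TBBD (replicates 2 and 1), against 6.12 and 7.11 with DMSO. DMSO replicate 1 was the highest array for 6 of 7, where 29.2% of all genes had it highest. The replicate 1 difference below uses that same array, so it is no separate result. TBBD minus DMSO was lower in 7 of 7 in replicate 1, with a median of -0.98, and in 5 of 7 in replicate 2, with a median of -0.11. MIXL1, a streak homeobox factor, read 6.01 and 6.37 with TBBD, against 6.03 and 7.85 with DMSO, and EOMES, a T-box factor, 5.92 and 6.03 with TBBD, against 6.23 and 7.38 with DMSO. The part of these cells in the DKK1, SFRP2 and DKK4 values was not tested. Of 7 measured pluripotent cell markers 6 lay lower in replicate 2, with 3 called lower and 1 higher, SOX2, at 1.29 ± 0.12 (SE; limma adjusted p = 0.00343).

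The lists of other types moved less evenly. Definitive endoderm markers, 5 genes, and neural progenitor markers, 6 genes, had 0 called between the numbers, with medians of 0.13 and -0.0026. Of 6 trophoblast markers 5 lay lower in replicate 2, and CGA, the hormone alpha subunit of placenta and pituitary, passed as higher by 2.55 ± 0.20 (SE; limma adjusted p = 0.00221).

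**Figure D5:**
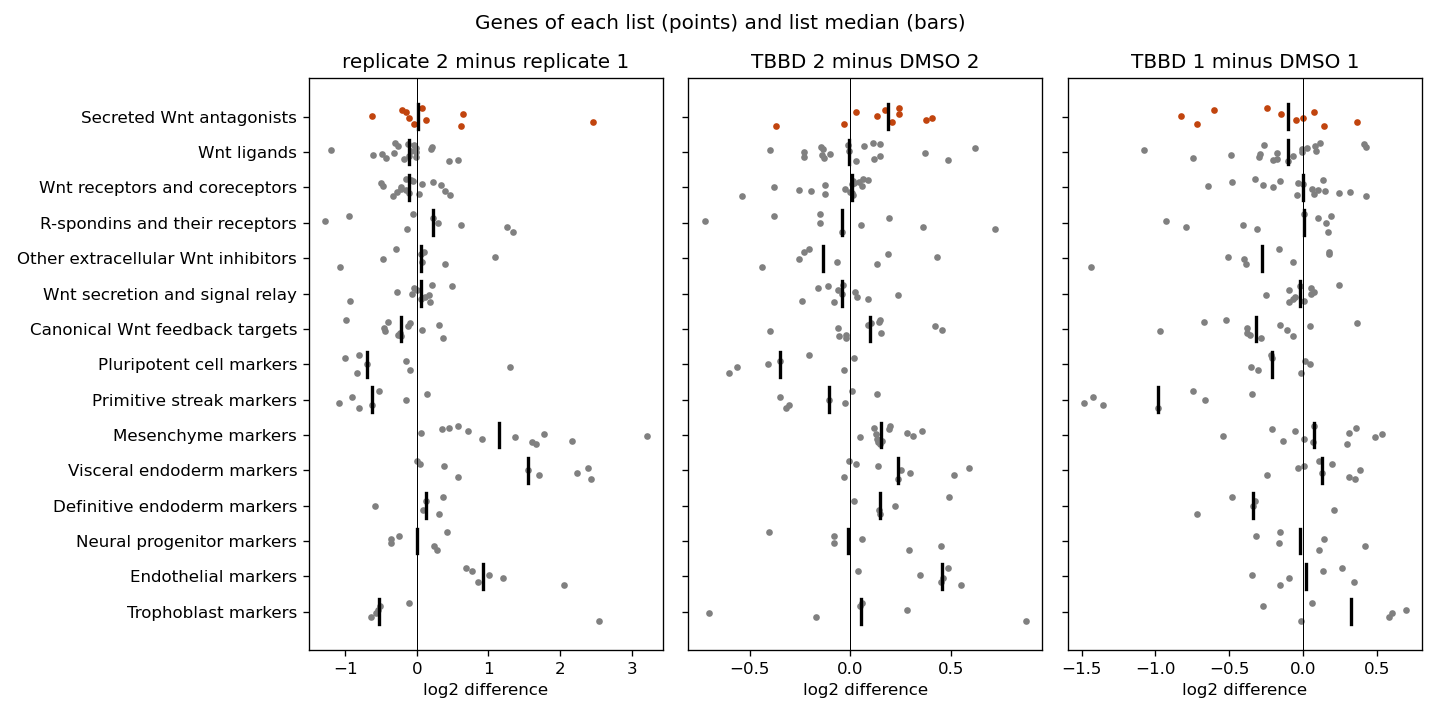
Log2 differences of single genes (points) and list medians (bars) for the 10 secreted Wnt antagonists in red and the other lists in grey, between replicate numbers (left) and between TBBD and DMSO within replicate 2 (middle) and replicate 1 (right). The horizontal scales differ. FRZB at 2.46 lies among the mesenchyme and visceral endoderm markers on the left, and the streak markers lie lowest on the right.

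For the 3 genes with the widest range over arrays, the genes most alike in profile were found by the root mean square difference of centred log2 values over the 4 arrays. With 4 arrays and 18640 genes, close matches are easily found. For FRZB they were AFP, an endoderm and fetal liver protein, at a difference of 0.021, SLIT3, a secreted guidance protein, at 0.12, and APOB, a lipoprotein, at 0.14. AFP read 8.22 and 5.85 with TBBD (replicates 2 and 1), against 7.98 and 5.50 with DMSO. For DKK1 they were CSNK2A1 on 1 probeset at 0.046, the histone gene H2BC14 at 0.058 and LZTS1 at 0.06. For SFRP1 they were the small nucleolar RNA gene SNORA1 on 1 probeset at 0.026, the vessel growth factor gene ANGPT2 at 0.039 and ETFRF1 at 0.049.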

How the data were processed

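Biotin-labelled RNA of 4 samples, 2 with TBBD and 2 with DMSO, was hybridised to Affymetrix arrays, after Trizol extraction per the labels' protocols. Per the submitters' processing notes, the authors used RMA, with the version not given in the sources used here. Deposited were log2 signals per probeset. The scale was read from the values (maxima of 13.7 to 13.8), and array medians were 6.39 to 6.42. The number of arrays limits the precision. A placeholder near 0 filled 358 cells, and the 277 probesets holding one were left out. Probesets with 1 gene symbol were averaged per gene, with older symbols updated through RefSeq. That gave 18640 genes.

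Differences were fitted with limma 3.58.1 (R 4.3.3), two-sided, and p-values were adjusted by Benjamini-Hochberg over the whole table, with a threshold of 0.05. TBBD minus DMSO had the group as its only term. Replicate 2 minus replicate 1 had the group as a further term. The fits were tested on simulated data with independent noise, in which few genes differed between the numbers. That does not test the TBBD fit under the differences between numbers found here. Tables and plots used Python 3.11.15 with pandas 2.3.3. Groups and numbers came from the sample titles. The genes named are the 10 members, up to 3 list genes with the smallest p between numbers and up to 2 between TBBD and DMSO, and the 3 genes most alike in profile to each of 3 members. RSPO3 is an exception. The members and lists were chosen with earlier results of these data known. Alternatives were another normalization, median centring, an intensity trend, a replicate block, dropping dim genes or those under 3 probesets, a median in place of the mean of probesets, no group term and each array left out. Those for same-number differences were chosen after seeing the data.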

Additional observations from a re-analysis of the deposited data

How the results depend on the processing

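No alternative called a gene between TBBD and DMSO in limma. The replicate block gave 0 genes at the adjusted threshold and 496 at an unadjusted p under 0.05, against 139 without it, and changed no call among the 10 genes. Under it FRZB had an SE of 0.12 in place of 1.11 and an unadjusted p of 0.0463 (limma adjusted p = 1.00), which makes 1 of 10 under an unadjusted p of 0.05. Same-numbered arrays deviated from their group means together (r = 0.566 across genes, which are not replicates), but with 2 pairs the numbers are not shown to pair the samples. Between replicate numbers 653 genes were called and 1001 without the group term, which leaves more residual degrees of freedom, and the other settings gave 613 to 875. With 1 array left out that fit has no residual degrees of freedom, so it gave values and no count. Each such value is only the difference between the 2 arrays of the group left whole, so it is no separate check. The DMSO and TBBD differences, in that order, were opposite in sign for SFRP2 (-0.39 and 0.30), SFRP4 (-0.084 and 0.34) and SFRP5 (-0.32 and 0.089). They were also opposite for DKK4 (-0.59 and 0.19) and WIF1 (-0.17 and 0.32).

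FRZB was called between numbers in every tested setting. DKK2 was called with median centring, without the dimmest genes, with the median over probesets, with at least 3 probesets and without the group term, and SFRP1 with at least 3 probesets. With 1 array left out, TBBD minus DMSO changed sign for 8 genes and ran from -0.98 to 1.56 for FRZB, -0.55 to 0.33 for SFRP1, -0.0064 to 0.33 for SFRP4, -0.90 to 0.21 for DKK1, -0.38 to 0.47 for DKK2, -0.035 to 0.14 for DKK3, -0.51 to 0.077 for DKK4 and -0.16 to 0.16 for WIF1. These fits leave the numbers unequal. WIF1 stood at 0.0027 with median centring. Between numbers the median over probesets gave 0.32 for SFRP2 and -0.050 for WIF1. The causes were not tested. Signal near the olfactory receptor level limits SFRP4, SFRP5, DKK4 and WIF1. DKK2 also came near it on the replicate 1 arrays, at 5.70 with TBBD and 5.85 with DMSO.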
